A study of Mus musculus with 44 samples.

Results

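The 7 transcription factor genes Pou4f1, Nr4a2, Nhlh1, Nhlh2, Gbx2, Zic1 and Etv1 are used as identity genes of the habenula, and their counts were followed through all 44 libraries of the series. They were chosen by symbol, and they and the gene lists used below were chosen with earlier results of these data known. Counts of called members or markers therefore describe these data and are not an independent check. All 7 are among the 22682 gene symbols found in every deposited count table. The medial habenula (MHb) is a small epithalamic nucleus whose cholinergic neurons project to the interpeduncular nucleus (IPN) of the midbrain, a pathway known for its part in nicotine intake and aversion.

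Transcription factors of this kind switch on sets of genes in a neuron's lineage, and some stay expressed in the adult, where they keep up the neuron's type. Pou4f1 encodes a POU homeodomain protein needed for the development of habenular neurons in the mouse. Nr4a2 encodes an orphan nuclear receptor best known from midbrain dopamine neurons, Nhlh1 and Nhlh2 encode a pair of closely related neuronal helix-loop-helix proteins, Zic1 encodes a zinc finger protein of dorsal neural tissue, Etv1 encodes an ETS factor, and Gbx2 encodes a homeodomain protein best known from the thalamus, which borders the habenula.

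Ribosomes tagged with EGFP-L10a were pulled down with their RNA (translating ribosome affinity purification, the IP) and set against RNA of the whole homogenate of the dissected region (the input). The MHb libraries came from single transgenic ChAT-TRAP mice of line DW167, in which cholinergic neurons carry the tag. The IPN libraries came from mice of the BAC Cre lines Chrna5-Cre (SN83), Amigo1-Cre (NP231) and Epyc-Cre (KR363), each crossed to Eef1a1-LSL.EGFPL10 so that cells with Cre carry the tag. All mice were adults over 8 weeks of age on a B6J.Cg background, and each library came from a pool of 3 to 9 mice. The ChAT line has 4 inputs (2 baseline, 1 from left and 1 from right habenulae of 9 males, and 2 from mice on 0.2% saccharin water for 6 weeks with a saline injection 3 h before collection), 9 IPs without nicotine and 3 IPs with nicotine. The 9 IPs without nicotine are 4 baseline (whose library names say saline), 2 saccharin water, 2 saccharin water with saline injection and 1 saline pump of 14 days. The 3 nicotine IPs came from mice given 500 mg/L nicotine tartrate in 0.2% saccharin water for 6 weeks, 1 of these pools with the saline injection. The Chrna5 line has 4 inputs and 3 IPs, all baseline, with pool 4 made of males. The Amigo1 line has 4 inputs and 3 IPs from baseline or saline pump mice, and 3 IPs from mice on nicotine water. The Epyc line has 4 inputs and 5 IPs from baseline or saline pump mice, and 2 IPs from mice with nicotine pumps.

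Libraries held 7908401 to 70481509 counts in genes. Levels are given in CPM, read counts scaled to the library's total over the shared symbols, and 3 counts, the least taken as detection, correspond to 0.0495 to 0.436 CPM depending on the library; such floors cover counting error only. The tables use 3 gene lists, and reads of a gene can be counted differently on each, so the tests stayed within 1 list where the design allowed it. Each difference is on the log2 scale with its SE, fitted by edgeR's quasi-likelihood test, and a gene was called at an adjusted p under 0.05 over all genes tested. One replicate is 1 pool, so p-values measure the spread between pools. The left and right baseline ChAT inputs may be the 2 sides of the same mice, which the labels do not say. With either left out the number of members called stayed at 7 for ChAT IP against input and at 6 for MHb against IPN input. With all libraries, 42.8% and 29.9% of all genes tested were called in these 2 comparisons, in that order. Fits that left out 1 library called 5761 to 6665 and 3682 to 5279 of all genes. Of the markers of the labelled cells, 9 of 9 MHb neuron markers were higher in ChAT IPs than in inputs, with a summed level of 6560 to 7490 CPM in the 3 IPs on list 1 against 741 to 881 CPM in the 4 inputs, and 5 of 5 IPN neuron markers (Sst, Nos1, Pax7, Otp, Slc32a1) were higher in Chrna5 IPs than in Chrna5 inputs. Of these 5 IPN markers 4 were higher and 1 lower in Amigo1 IPs, and in Epyc IPs 2 were higher, 2 lower and 1 not called, with a summed level of 1070 to 1490 CPM against 598 to 1420 CPM in Epyc inputs, so the list does not set Epyc IPs apart from their inputs. The MHb list also summed higher in Chrna5 IPs, at 765 to 1070 CPM against 316 to 400 CPM in their inputs. Of its 9 markers 3 were higher there, 1 was lower and 5 were not called, where 37.3% of all genes tested were called. The 3 Amigo1 nicotine IPs stood apart, with 10515 to 10933 symbols detected against 13367 to 17753 in the other libraries.

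**Figure D1:**
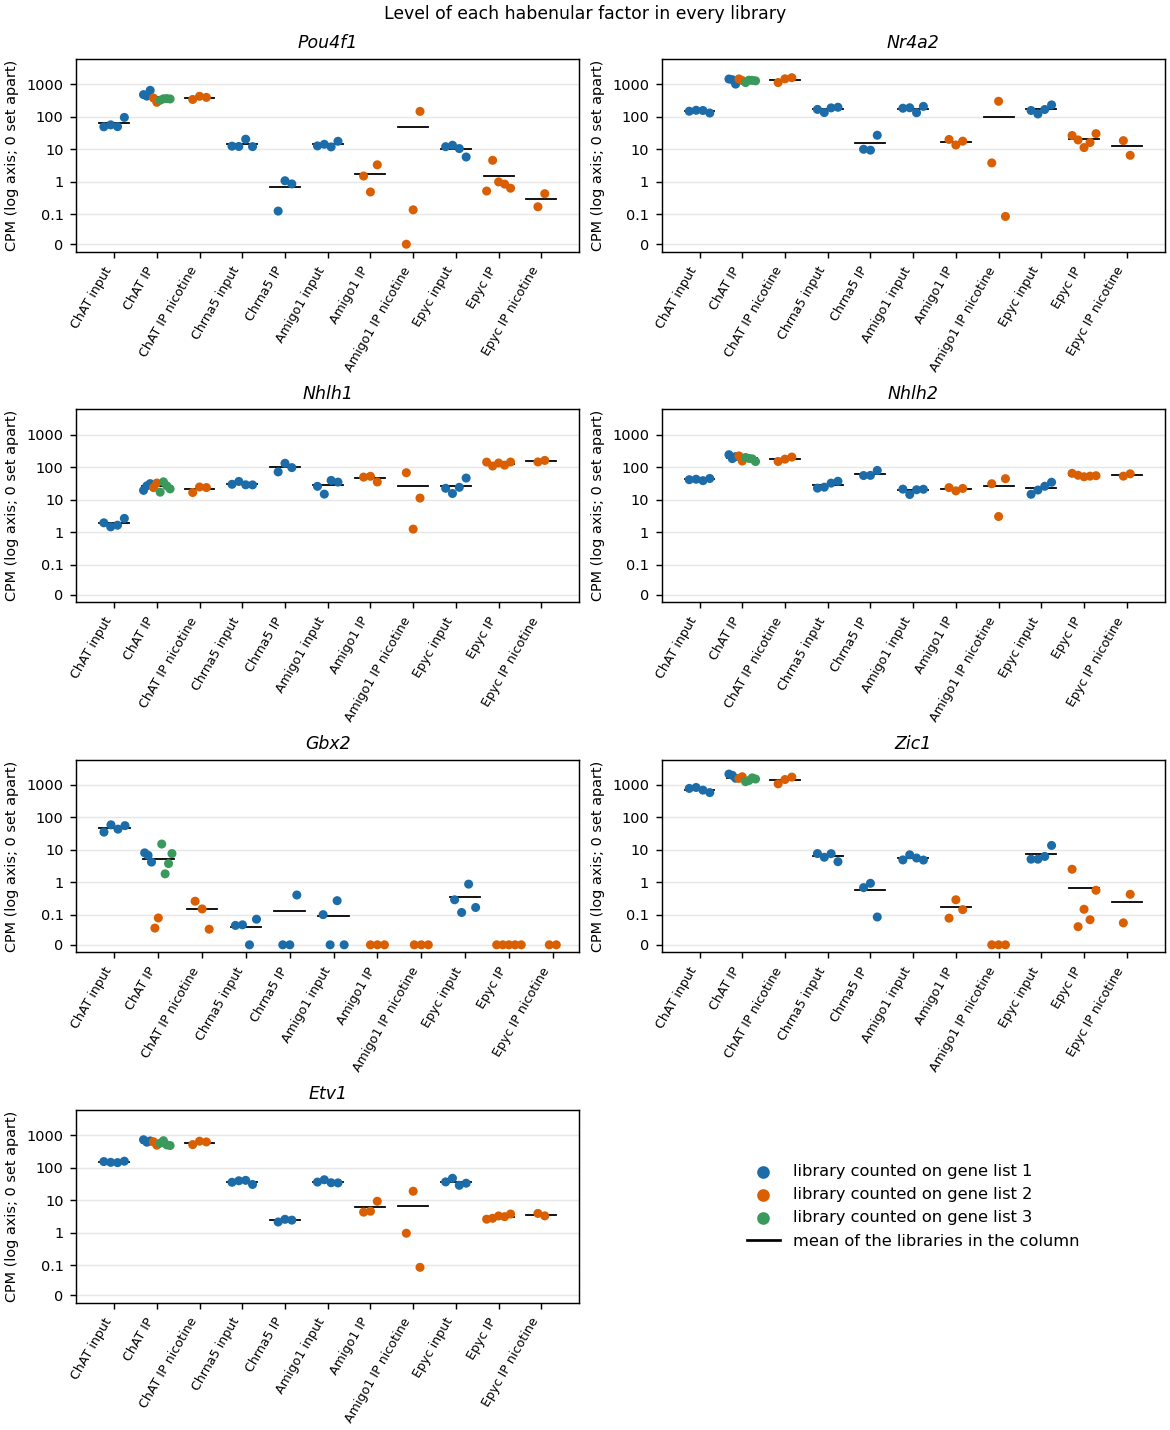
Level of the 7 genes in each of the 44 libraries (CPM, log axis, with 0 set apart at the bottom), by line, fraction and nicotine; points are libraries, coloured by gene list, and the bar is the mean of a column. Pou4f1, Nr4a2, Nhlh2, Zic1 and Etv1 are highest in ChAT IPs, Nhlh1 is highest in Epyc and Chrna5 IPs, and Gbx2 is highest in ChAT inputs.

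In the ChAT line, RNA bound to tagged ribosomes was richer than whole MHb in 6 of the 7 factors, and poorer in Gbx2. The comparison set 3 saccharin-water IPs against 4 inputs, all on list 1, in a fit of the 22 libraries of that list. All 7 genes were called, where 42.8% of the 15893 genes tested were called (19.8% higher and 23.0% lower). The median log2 difference over all genes tested was -0.04. In the Chrna5 line the pattern was split: Nhlh1 and Nhlh2 rose in the IP, and Pou4f1, Nr4a2, Zic1 and Etv1 fell, so 6 of 7 genes were called against 37.3% of all genes tested (16.7% higher and 20.7% lower). The difference between the ChAT and the Chrna5 enrichments, a test added after seeing the data, was called for 7 of 7 genes where 24.3% of all genes were called (12.7% higher and 11.6% lower). For Gbx2 that call rested on 1 Chrna5 IP. The ChAT IPs came from saccharin-water mice and the Chrna5 libraries from baseline mice, so line, treatment and tagging cannot be told apart in it.

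Pou4f1 (chr14:104461676-104467999 on GRCm38, minus strand) stood at 483, 436 and 654 CPM in the 3 ChAT IPs on list 1, and at 49.3, 56.6, 49.95 and 96.2 CPM in the ChAT inputs. Every IP lay above every input, and pool 2 of the saline-injected saccharin mice was the highest in both fractions. The IP was higher by 3.25 ± 0.29 on the log2 scale, a 9.53-fold difference (edgeR adjusted p = 1.3e-09), which is rank 76 of 15893 genes from the highest. In the 2 pools with both fractions, IP over input was 6.81 to 7.59. In the 12 IPN inputs Pou4f1 ranged from 5.82 to 20.5 CPM with a median of 12.4 CPM. The Chrna5 IPs held 0.126, 1.08 and 0.862 CPM, the first of these from 2 counts, and all lay below every Chrna5 input. The log2 difference of Chrna5 IPs from their inputs was -4.08 ± 0.38 (adjusted p = 6.39e-09), and the ChAT and Chrna5 enrichments differed by 7.34 ± 0.48 (adjusted p = 2.31e-11). Whole MHb was 5.13-fold above whole IPN tissue in Pou4f1 (log2 difference 2.36 ± 0.20, adjusted p = 3.8e-10).

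Nr4a2 (chr2:57106830-57124003, minus strand) was at 1462, 1392 and 1019 CPM in the 3 ChAT IPs on list 1 and at 149, 159, 157 and 131 CPM in the ChAT inputs. The groups did not overlap, and the pool highest in Pou4f1 was the lowest in Nr4a2 in both fractions. The log2 difference was 3.32 ± 0.29, a 10.0-fold difference (edgeR adjusted p = 8.2e-10). The inputs of the 2 regions overlapped in Nr4a2: the 12 IPN inputs ranged from 123 to 234 CPM with a median of 177 CPM, and the difference of MHb from IPN input was -0.18 ± 0.21 on the log2 scale (adjusted p = 0.572). Nr4a2 was the 1 member of 7 not called in that comparison of inputs, where 29.9% of genes were called (15.6% higher and 14.2% lower). Beside this, 5 dopamine neuron markers (Th, Slc6a3, Slc18a2, Ddc, Aldh1a1) summed to 2040 to 2940 CPM in IPN inputs and to 86.0 to 118 CPM in MHb inputs. In the Chrna5 IPs Nr4a2 was at 10.1, 9.44 and 27.2 CPM, all below the lowest IPN input, and the same dopamine markers summed to 198 to 272 CPM. Chrna5 IPs were 9.58-fold below their inputs (log2 difference -3.26 ± 0.31, adjusted p = 1.07e-08), and the ChAT and Chrna5 enrichments differed by 6.58 ± 0.43. In bulk RNA, fewer cells of a type and less RNA per cell cannot be told apart, and the part of dopamine neuron RNA in these inputs was not tested.

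Nhlh1 (chr1:172052292-172057573, minus strand) and Nhlh2 (chr3:102010076-102015492, plus strand) were the 2 members that rose in IPs of both regions. Helix-loop-helix proteins bind E-box motifs, CANNTG, as dimers. The RefSeq promoter windows of this pair, 250 bases before to 50 bases after the start on GRCm38.p6, are shown with that of Pou4f1, which rose in the ChAT IP alone among these 3. The windows are chr1:172057547-172057846 (minus strand), chr3:102009895-102010194 (plus strand) and chr14:104467950-104468249 (minus strand). Each is written 5′ to 3′, and capitals mark CANNTG, a motif that reads as the same pattern on both strands.
Nhlh1: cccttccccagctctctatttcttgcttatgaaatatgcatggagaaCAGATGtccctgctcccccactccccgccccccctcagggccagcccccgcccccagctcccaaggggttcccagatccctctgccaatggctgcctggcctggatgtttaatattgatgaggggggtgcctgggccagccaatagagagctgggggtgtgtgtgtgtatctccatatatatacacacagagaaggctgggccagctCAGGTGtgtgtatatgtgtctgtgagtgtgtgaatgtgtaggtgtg
Nhlh2: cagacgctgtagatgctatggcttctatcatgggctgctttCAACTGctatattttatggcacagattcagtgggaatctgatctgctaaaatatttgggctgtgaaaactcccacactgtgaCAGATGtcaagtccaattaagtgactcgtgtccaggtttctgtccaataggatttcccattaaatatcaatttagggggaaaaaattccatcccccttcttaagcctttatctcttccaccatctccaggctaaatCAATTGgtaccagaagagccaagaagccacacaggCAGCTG
Pou4f1: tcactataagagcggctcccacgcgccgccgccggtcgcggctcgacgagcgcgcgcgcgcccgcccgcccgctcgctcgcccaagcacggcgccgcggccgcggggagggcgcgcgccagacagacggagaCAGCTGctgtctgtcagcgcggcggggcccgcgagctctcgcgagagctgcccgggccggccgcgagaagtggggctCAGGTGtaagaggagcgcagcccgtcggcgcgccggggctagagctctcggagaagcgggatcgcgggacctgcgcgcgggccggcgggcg
The windows hold 2, 4 and 2 matches, and 72.3% of all 32851 promoter windows in the table hold at least 1. CAGCTG, a form of the same motif, occurs once each in the Nhlh2 and Pou4f1 windows and in 16.3% of all windows. Of the other members' windows, Gbx2 has 4 matches to CANNTG and Zic1 has 1, Nr4a2 has none, and the 2 windows listed for Etv1 have 0 and 3. The motif AAAGGTCA, which NR4A receptors bind as monomers, was in none of the 8 member windows and in 1.51% of all windows on either strand.

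Nhlh1 was low in whole MHb, at 1.94, 1.45, 1.63 and 2.64 CPM in the 4 ChAT inputs, and stood at 19.3, 26.5 and 31.0 CPM in the 3 ChAT IPs on list 1. Every IP was above every input. The log2 difference of 3.97 ± 0.35, a 15.7-fold difference (edgeR adjusted p = 6.92e-10), was the largest of the 7 and rank 19 of 15893 genes. In the IPN the level was higher still: the Chrna5 inputs held 29.6, 36.3, 28.7 and 28.4 CPM and the Chrna5 IPs 71.4, 132 and 96.7 CPM, again without overlap. Chrna5 IPs exceeded their inputs 3.67-fold (log2 difference 1.87 ± 0.31, adjusted p = 3.46e-05). The enrichment was larger in the ChAT line, by 2.10 ± 0.46 on the log2 scale (adjusted p = 0.00106), although ChAT IPs lay below Chrna5 IPs by 1.88 ± 0.34 (adjusted p = 7.9e-05).

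Nhlh2 was at 241, 183 and 211 CPM in the ChAT IPs and at 41.1, 42.4, 38.4 and 44.8 CPM in the ChAT inputs. The ranges were far apart, and the log2 difference was 2.55 ± 0.24 (5.85-fold, edgeR adjusted p = 3.15e-09). The Chrna5 IPs held 55.2, 55.8 and 79.3 CPM, above all 4 Chrna5 inputs at 22.6, 24.2, 32.2 and 36.8 CPM, with a log2 difference of 1.31 ± 0.24 (adjusted p = 0.000105). ChAT IPs were 3.53-fold above Chrna5 IPs in Nhlh2 (log2 difference 1.82 ± 0.26, adjusted p = 2.85e-06), the opposite direction to Nhlh1. Between the whole regions Nhlh2 differed less than the other called members, with MHb inputs 1.83-fold above IPN inputs (log2 difference 0.87 ± 0.17, adjusted p = 0.000288), while Nhlh1 was 14.8-fold lower in MHb inputs (-3.89 ± 0.31, adjusted p = 1.75e-10).

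Zic1 (chr9:91358058-91365810, minus strand) was at 2160, 1978 and 1611 CPM in the ChAT IPs on list 1, and at 782, 836, 692 and 582 CPM in the ChAT inputs. The IP levels lay above all inputs, but the step was the smallest of the 6 that rose, at 1.61 ± 0.31 on the log2 scale (3.06-fold, edgeR adjusted p = 0.000199). The regions lay far apart: the 12 IPN inputs ranged from 4.35 to 13.8 CPM, and whole MHb was 114-fold higher (log2 difference 6.83 ± 0.24, adjusted p = 1.08e-16). The Chrna5 IPs held 0.692, 0.939 and 0.0862 CPM, from 11, 20 and 4 counts, below all of their inputs (-3.60 ± 0.49, adjusted p = 3.73e-06). Zic1 shares 60 exonic bases with the antisense gene Zic4, and the counting is not stated to use strand. Reads within those bases could be ambiguous between these genes, and ambiguous reads stayed out of the counts.

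Etv1 (chr12:38779380-38870484, plus strand) was at 727, 612 and 667 CPM in the ChAT IPs and at 155, 147, 144 and 159 CPM in the ChAT inputs. These are tight, separate ranges, and the log2 difference was 2.35 ± 0.15 (5.10-fold, edgeR adjusted p = 2.44e-12). The Chrna5 IPs stood at 2.14, 2.58 and 2.44 CPM against 35.7, 39.7, 40.9 and 30.6 CPM in their inputs, a fall by 3.75 ± 0.18 on the log2 scale (adjusted p = 6.45e-14). The ChAT and Chrna5 enrichments of Etv1 differed by 6.10 ± 0.24 (adjusted p = 7.91e-16), the lowest p of the 7 genes. Whole MHb held 4.28-fold more Etv1 than whole IPN (log2 difference 2.10 ± 0.10, adjusted p = 6.07e-15).

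**Figure D2:**
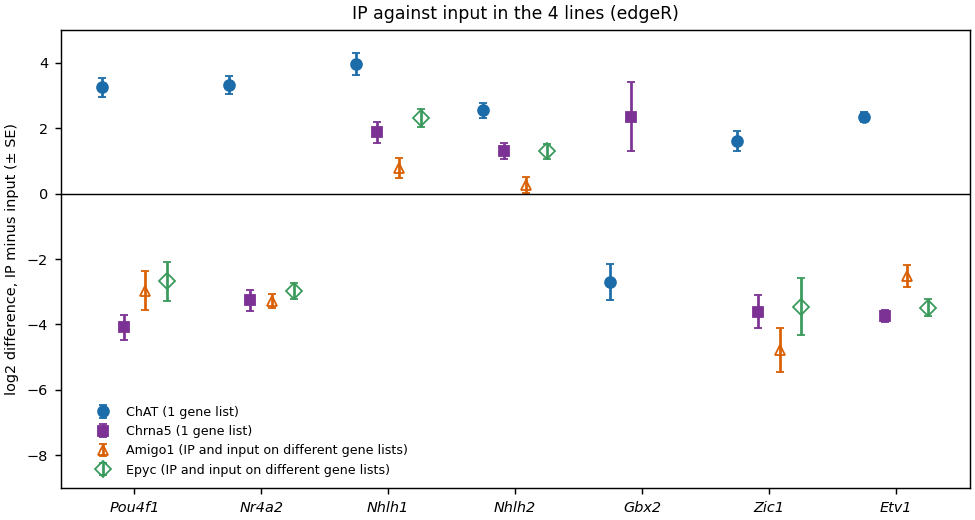
Log2 difference of IP from input (y axis, ± SE) for each gene in the ChAT, Chrna5, Amigo1 and Epyc lines; open symbols mark lines whose IPs and inputs were counted on different gene lists, and Gbx2 was filtered out in those lines. Nhlh1 and Nhlh2 lie above 0 in all 4 lines, though neither was called in the Amigo1 line. Pou4f1, Nr4a2, Zic1 and Etv1 lie above 0 in the ChAT line and below 0 in the 3 IPN lines.

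Gbx2 (chr1:89927956-89931179, minus strand) ran the other way in the MHb. The ChAT inputs held 35.4, 59.2, 43.6 and 55.9 CPM, and the 3 ChAT IPs on list 1 held 8.11, 6.83 and 4.22 CPM, so every IP was below every input. Gbx2 fell by 2.71 ± 0.55 on the log2 scale (6.53-fold, edgeR adjusted p = 0.000252). In the 2 paired pools, where 1 of the IPs was counted on list 2, the difference was larger but was not called, at -5.53 ± 2.57 with the pool as a block (adjusted p = 0.32) and at -4.44 ± 1.63 without (adjusted p = 0.116). The 5 thalamic neuron markers Ramp3, Prkcd, Tnnt1, Plekhg1 and Synpo2 were lower in the IP as well, 5 of 5, with a median log2 difference of -2.37 and a summed level of 95.6 to 389 CPM in these IPs against 1120 to 1440 CPM in the inputs. Gbx2 made up 2.45 to 4.99% of that sum in the inputs and 1.76 to 4.42% in the 3 IPs on list 1. In the 4 baseline IPs on list 3 the share was 1.62 to 2.65%, and Gbx2 rose in the same order as the markers, from 1.83 CPM beside a marker sum of 84.9 CPM through 3.802 and 7.73 CPM to 15.2 CPM beside 605 CPM. The 3 IPs on list 1 did not keep that order, with 8.11 CPM beside 234 CPM and 6.83 CPM beside 389 CPM, nor did the 4 inputs, of which the one with the highest marker sum was the lowest in Gbx2. The 5 ChAT IPs on list 2 kept that order in CPM, from 0.0363 CPM beside 50.2 CPM to 0.264 CPM beside 641 CPM, from 2, 2, 2, 8 and 16 counts. The libraries with 2 counts lie under the detection floor of 3 counts, so the order among them cannot be read. Gbx2 was only 0.0412 to 0.0800% of the marker sum in these 5 IPs on list 2. Gbx2 levels from different gene lists therefore cannot be set side by side. Gbx2 shares 946 exonic bases with the antisense transcript D130058E05Rik, a symbol of list 1 that is not on lists 2 and 3. D130058E05Rik had 369 to 889 counts in ChAT inputs and 12 to 49 counts in the 3 ChAT IPs on list 1. Without strand, reads within the shared bases cannot be told apart, and reads counted as ambiguous stayed out of the counts. The part of thalamic RNA in the Gbx2 values was not tested.

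**Figure D3:**
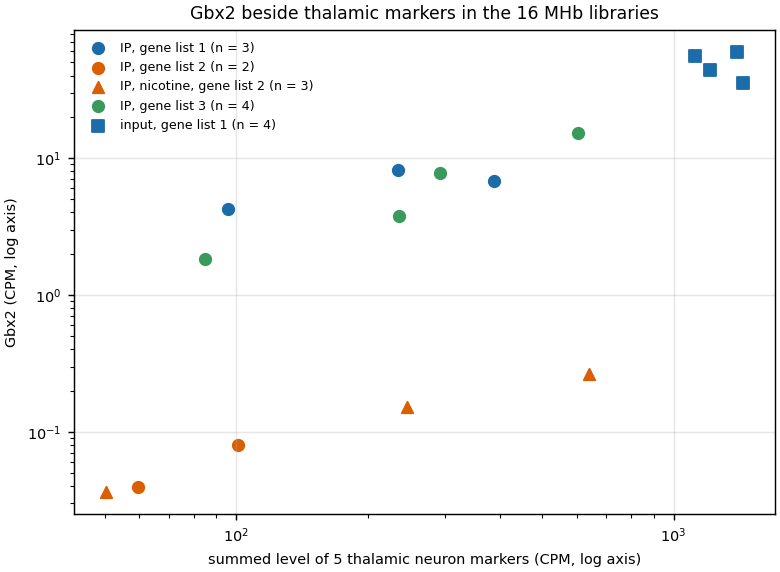
Gbx2 level (y axis, CPM) against the summed level of 5 thalamic neuron markers (x axis, CPM), both on log axes, in the 16 libraries of the ChAT line; squares are inputs, circles IPs without nicotine and triangles nicotine IPs, coloured by gene list. The IPs on list 2 lie at 0.0363 to 0.264 CPM, below all IPs on lists 1 and 3 at 1.83 to 15.2 CPM, at like marker sums.

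In IPN tissue Gbx2 was near the detection floor. The 12 IPN inputs ranged from 0 to 0.885 CPM with a highest count of 17, and whole MHb was above whole IPN (fitted log2 difference 8.78 ± 0.44, adjusted p = 1.95e-14). Of the 3 Chrna5 IPs, 2 held 0 counts and pool 4 held 19, so the difference of IP from input was not called (adjusted p = 0.0832). Without that library its sign turned, to -3.49 ± 3.04 on the log2 scale. The difference between the ChAT and Chrna5 enrichments, -5.06 ± 1.17, rested on the same library and was 0.78 without it (adjusted p = 0.787). No count of Gbx2 was seen in the 6 Amigo1 IPs or the 7 Epyc IPs, all on list 2, where Gbx2 was also low in the ChAT IPs.

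ChAT and Chrna5 IPs, both on list 1, were then compared directly, as labelled neurons of the 2 regions. The 3 ChAT IPs came from saccharin-water mice, 1 pool with the saline injection, that carry the tag without a Cre cross. The 3 Chrna5 IPs came from baseline mice tagged through Cre, so region, treatment and tagging cannot be told apart. All 7 genes were called, 6 higher in ChAT IPs and Nhlh1 lower, where 37.3% of the 15893 genes were called (20% higher and 17.3% lower). Zic1 was higher by 12.09 ± 0.57 on the log2 scale, rank 14 of all genes from the highest, Pou4f1 by 9.52 ± 0.45 (rank 37), Etv1 by 8.20 ± 0.22 (rank 83) and Nr4a2 by 6.42 ± 0.37 (rank 198). Gbx2 was higher by 5.08 ± 0.72 as fitted, against a group in which 2 of 3 libraries had no count, and by 10.93 ± 1.38 without Chrna5 IP pool 4.

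On list 2, the 2 ChAT control IPs (1 saccharin water with saline injection and 1 saline pump) could be set against the Amigo1 and the Epyc control IPs, which had no saccharin water. Pou4f1 was at 379 and 281 CPM in these ChAT IPs, at 1.51, 0.487 and 3.34 CPM in the Amigo1 IPs, and at 0.521, 4.60, 0.995, 0.852 and 0.637 CPM in the Epyc IPs. Nr4a2 was at 1474 and 1312 CPM in the ChAT IPs against 13.6 to 20.2 CPM in Amigo1 and 11.3 to 30.5 CPM in Epyc IPs. Zic1 was at 1591 and 1789 CPM in the ChAT IPs, and no Amigo1 control IP exceeded 6 counts of it. Against Amigo1, 5 of the 6 genes tested were higher in ChAT IPs (Pou4f1, Nr4a2, Nhlh2, Zic1 and Etv1), where 5.39% of 14934 genes were called (2.14% higher and 3.25% lower). Nhlh1 was not called: its ChAT levels of 23.4 and 32.4 CPM stood below the Amigo1 levels of 49.4, 52.3 and 34.99 CPM (log2 difference -0.66 ± 0.86, adjusted p = 0.851). Leaving out any 1 of these 5 libraries left 2 to 3 genes called, with Pou4f1 at adjusted p = 0.101 to 0.148 and Nr4a2 at 0.076 to 0.107. The fit shares its spread with the Amigo1 nicotine libraries that stood apart. Without those 3 libraries the same 5 genes were called, Pou4f1 at 7.82 ± 0.78 (adjusted p = 2.23e-06) and Nr4a2 at 6.39 ± 0.42 (adjusted p = 1.09e-08), among 3523 genes against 805.

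Against Epyc, Pou4f1, Nr4a2, Zic1 and Etv1 were higher in ChAT IPs, 4 of the 6 genes tested, where 6.37% of genes were called (2.95% higher and 3.42% lower). Pou4f1 differed by 7.76 ± 1.64 on the log2 scale (edgeR adjusted p = 0.006) and Nr4a2 by 6.09 ± 1.27 (adjusted p = 0.00549). The Nhlh pair again pointed in opposite directions. Nhlh1 was at 143, 108, 134, 115 and 144 CPM in the Epyc IPs, all above the 2 ChAT IPs, with a log2 difference of -2.19 ± 0.88 (adjusted p = 0.201), and Nhlh2 was at 64.4, 56.2, 50.7, 52.9 and 54.5 CPM against 222 and 155 CPM, with a log2 difference of 1.78 ± 0.53 (adjusted p = 0.055). Neither passed the threshold in this fit, and both did without the 3 Amigo1 nicotine libraries, at -2.20 ± 0.25 (adjusted p = 1.84e-06) for Nhlh1 and 1.76 ± 0.18 (adjusted p = 5.26e-07) for Nhlh2.

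Within the Amigo1 and Epyc lines, IPs were counted on list 2 and inputs on list 1, so gene list and fraction cannot be told apart. In the Amigo1 line 4 of 6 genes tested were lower in the IP, where 30.6% of genes were called (13.9% higher and 16.8% lower): Nr4a2 by 9.72-fold, Zic1, Pou4f1 and Etv1. Etv1 was at 4.29, 4.58 and 9.29 CPM in the IPs against 36.2, 42.6, 34.5 and 34.1 CPM in the inputs, the groups well apart (log2 difference -2.52 ± 0.33, edgeR adjusted p = 0.000519). Nhlh1 was not called there, at 0.79 ± 0.31 (adjusted p = 0.0812), nor was Nhlh2, at 0.27 ± 0.23 (adjusted p = 0.42). Nhlh1 was called, at 0.92, without the saline pump IP (adjusted p = 0.0161). With the pool as a block the same 4 genes were called, among 2537 genes against 4442. In the Epyc line 6 of 6 genes tested were called, where 36.1% of genes were (15.9% higher and 20.2% lower): Nhlh1 rose by 2.31 ± 0.27 (adjusted p = 5.04e-06) and Nhlh2 by 1.30 ± 0.23 (adjusted p = 0.000388), while Pou4f1, Nr4a2, Zic1 and Etv1 fell, Etv1 by 3.48 ± 0.25 (adjusted p = 2.17e-08). Nhlh1 exceeded its input in every Epyc pool with both fractions, 4.81 to 7.02-fold in 3 pools.

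The order of the levels over the 8 groups without nicotine (line by fraction, mean ± SD in CPM, gene lists pooled) differed between genes. Pou4f1 was highest in ChAT IPs (404 ± 111, n = 9), then in ChAT inputs (63.0 ± 22.4, n = 4), and these 2 groups overlapped neither each other nor the IPN inputs, which overlapped among themselves at 10.5 to 14.4 CPM on average. The IPs of the 3 IPN lines, at 0.689 to 1.78 CPM, came last and overlapped among themselves. Etv1 (596 ± 88.7 in ChAT IPs, 151 ± 7.02 in ChAT inputs) and Zic1 (1659 ± 283 and 723 ± 111) had the same sequence of ChAT IPs, ChAT inputs, IPN inputs and IPN IPs without overlap between these, though for Etv1 the IPs of the 3 IPN lines did not overlap among themselves. Nr4a2 was highest in ChAT IPs (1306 ± 148), while the 4 input groups, at 149 to 180 CPM on average, overlapped with their neighbours in the order and all lay above the IPN IPs at 15.6 to 20.8 CPM. Nhlh1 was highest in Epyc IPs (129 ± 16.2, n = 5), whose range overlapped with that of Chrna5 IPs (99.9 ± 30.2, n = 3). ChAT IPs (25.9 ± 6.20) lay within the range of the IPN inputs, and ChAT inputs (1.92 ± 0.524) were lowest, below all others. Nhlh2 was highest in ChAT IPs (192 ± 30.0), and Chrna5 IPs (63.4 ± 13.7) and Epyc IPs (55.7 ± 5.27) followed and overlapped with each other.

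To compare genes with each other, levels were also taken per kilobase of exon, with all annotated exons of a gene joined. That length is 13296 bases for Etv1 and 2177 to 5693 bases for the others. Which transcripts are expressed here was not determined, so the order depends on these lengths. In ChAT IPs on list 1, Zic1 led with 337 ± 49.2 CPM per kilobase, followed by Nr4a2 at 318 ± 58.8, and these 2 ranges overlapped. Pou4f1 (112 ± 24.6), Etv1 (50.3 ± 4.35), Nhlh2 (39.1 ± 5.33), Nhlh1 (10.4 ± 2.41) and Gbx2 (2.93 ± 0.910) followed, with no overlap between neighbours in that order. In Chrna5 IPs Nhlh1 led instead, at 40.5 ± 12.3 CPM per kilobase, before Nhlh2 at 11.7 ± 2.54, and the other 5 were at or below 3.83 CPM per kilobase on average.

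Over the 22 libraries of list 1, the profiles of Pou4f1 and Etv1 were the most alike of the 21 pairs of members, with a Pearson correlation of 0.983 on log2(CPM + 0.5). These points share line and fraction, so the value describes 6 kinds of library more than 22 separate ones. Zic1 went with Etv1 (0.913) and Pou4f1 (0.904), and Nhlh1 ran against Gbx2 (-0.835) and Zic1 (-0.684). Among 13515 genes with a mean of at least 1 CPM, the 3 most like Pou4f1 were Etv1, Prkcq (0.967) and Cdc14a (0.965), and those most like Etv1 were Pou4f1, Cdc14a (0.982) and Ccdc141 (0.973). Zic1 was closest to Rasgrp1 (0.980), Nek7 (0.974) and Lef1 (0.973). Nr4a2 was closest to Gpd1 (0.945), Nfib (0.941) and Otx2 (0.935). Nhlh1 was closest to Asic4 (0.972), Mxra7 (0.946) and Pbx3 (0.943), and Nhlh2 to Kcnip1 (0.969), Trp53i11 (0.964) and Syt6 (0.962). Gbx2 was closest to Cyp2j5 (0.980), Lmod2 (0.978) and Ptpn3 (0.971).

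The paralogs of the members did not all move with them. Of 10 paralogs followed, 9 were tested in the ChAT IP comparison: 3 were higher (Zic4, Zic5 and Nr4a3), 1 was lower (Etv5) and 5 were not called, near the 42.8% called among all genes, with a median log2 difference of 0.78 against -0.04 over all genes. Zic4, a zinc finger gene beside Zic1, stood at 594 to 761 CPM in the ChAT IPs against 107 to 185 CPM in the inputs (2.52 ± 0.58, edgeR adjusted p = 0.00186). Zic5 stood at 116 to 199 CPM against 33.9 to 87.6 CPM (1.75 ± 0.45, adjusted p = 0.00298). Zic2 (0.78 ± 0.43, adjusted p = 0.147) was not called. Zic2, Zic4 and Zic5 were each higher in MHb than in IPN inputs, by 4.94, 6.43 and 6.15 on the log2 scale. Nr4a3, a nuclear receptor gene close to Nr4a2, was at 93.3 to 102 CPM in the ChAT IPs on list 1 and at 39.1 to 54.1 CPM in the inputs (1.22 ± 0.32, adjusted p = 0.003), but at 17.3 to 21.3 CPM in the 2 ChAT control IPs on list 2. Zic5 likewise was at 18.03 to 23.3 CPM on list 2. Nr4a1 was not called (-0.70 ± 0.36, adjusted p = 0.122). Pou4f2, a close relative of Pou4f1 known from retinal ganglion cells, was at most 0.328 CPM in the 3 ChAT IPs and at 2.43 to 11.8 CPM in IPN inputs, where it was higher than in MHb inputs (MHb minus IPN -3.48 ± 0.85, adjusted p = 0.00277).

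**Figure D4:**
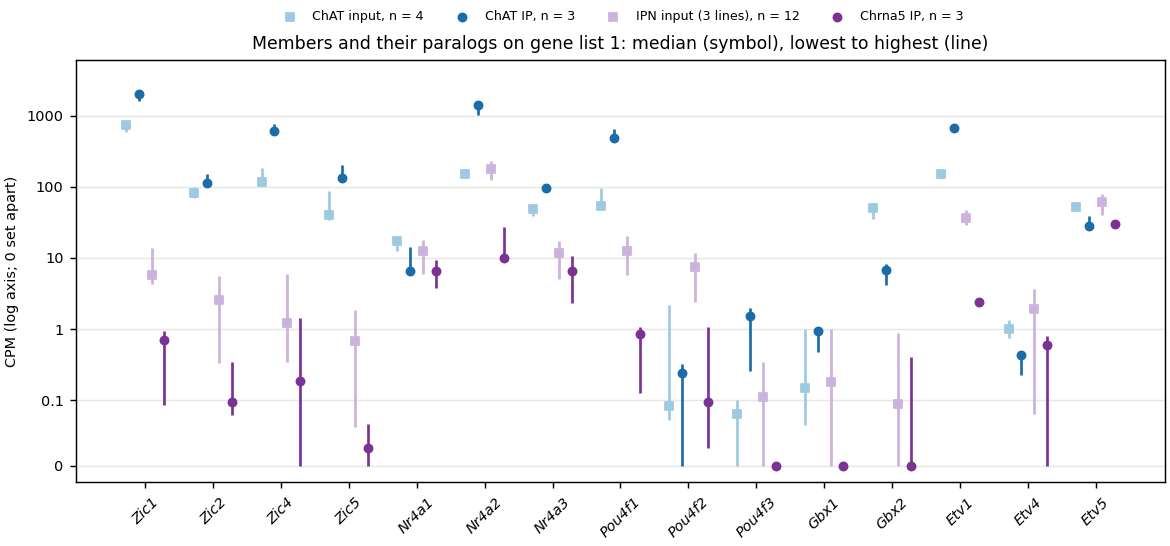
Levels of 5 of the members and their paralogs (y axis, CPM, log axis with 0 set apart) in ChAT inputs, ChAT IPs, IPN inputs and Chrna5 IPs, all on gene list 1; symbols are medians and lines run from the lowest to the highest library. The Zic genes shown are high in both MHb fractions and low in both IPN ones, while Nr4a2 is at like levels in the inputs of the 2 regions.

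Of 15 other factors of habenular and thalamic development, 12 were tested in the ChAT IP comparison: Lhx9 was higher, and Prox1, Rora, Foxp2 and Neurog2 were lower, with a median log2 difference of -0.47. That is near the 42.8% called among all genes. Lhx9, a LIM homeodomain gene, stood at 230 to 323 CPM in ChAT IPs against 114 to 142 CPM in inputs (1.37 ± 0.38, edgeR adjusted p = 0.00546). Rora, a nuclear receptor gene of thalamic neurons, fell from 1479 to 1784 CPM in inputs to 239 to 428 CPM in IPs (-2.03 ± 0.17, adjusted p = 4.33e-10). Tcf7l2, a Wnt pathway factor of thalamus and habenula, was at 1405 to 1433 CPM in the IPs and at 1697 to 1892 CPM in the inputs and was not called (-0.14 ± 0.20, adjusted p = 0.607). In the Chrna5 IP, 1 of the 12 was higher (Tcf7l2, 1.97 ± 0.20) and 5 were lower, where 37.3% of all genes were called. Between MHb and IPN inputs 8 of the 12 were higher and 0 lower, where 15.6% of all genes were higher, among them Lhx9 by 8.81 ± 0.34 and Lef1 by 5.76 ± 0.31.

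The dimer partners of the helix-loop-helix and nuclear receptor members were followed too. Of 7 such genes for Nhlh1 and Nhlh2 (the E proteins Tcf3, Tcf4 and Tcf12 and the inhibitors Id1, Id2, Id3 and Id4, which bind E proteins but not DNA), 1 was higher in ChAT IPs and 4 were lower, where 42.8% of all genes were called. Tcf4 rose from 140 to 167 CPM in inputs to 202 to 224 CPM in IPs (0.63 ± 0.14, edgeR adjusted p = 0.00058), and all 4 Id genes fell, Id2 from 24.2 to 32.7 CPM to 0.924 to 1.79 CPM (-4.22 ± 0.26, adjusted p = 1.89e-12). In Chrna5 IPs, where 37.3% of all genes were called, the 4 Id genes fell as well, and the 3 E proteins were not called. Of the 3 Rxr genes, whose proteins pair with Nr4a2, Rxrg fell in ChAT IPs (-3.44 ± 0.57, adjusted p = 2.23e-05), and Rxra and Rxrb were not called. Id genes are also expressed in glia, and 4 of 4 astrocyte markers were lower in the IPs of both lines, with median log2 differences of -2.34 (ChAT) and -4.01 (Chrna5). What part glial RNA has in the Id values was not tested.

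Nicotine water was compared with control in the ChAT IPs of list 2, 3 libraries against 2, since the uninjected saccharin and nicotine IPs lie on different lists. The 2 controls were 1 saccharin-water pool with the saline injection and 1 saline pump pool of 14 days without saccharin in its label. All 3 nicotine pools had saccharin, and 1 had the injection. The groups thus differ in pump, injection and saccharin as well as nicotine, and the parts of these were not tested. None of the 6 genes tested was called, and neither was any other: 0 of 14934 genes (0%) by edgeR, with 209 genes at an unadjusted p under 0.05, and 4 genes by DESeq2. Pou4f1 was at 343, 429 and 397 CPM with nicotine and at 379 and 281 CPM without. Nr4a2 was at 1138, 1482 and 1603 CPM with nicotine and at 1474 and 1312 CPM without. Both pairs of ranges overlapped. Zic1 stood at 1085, 1468 and 1744 CPM with nicotine and at 1591 and 1789 CPM without, and Etv1 at 515, 655 and 622 CPM with nicotine and at 629 and 495 CPM without, overlapping as well. Nhlh1 was at 16.6, 24.5 and 23.6 CPM against 23.4 and 32.4 CPM, and Nhlh2 at 150, 176 and 204 CPM against 222 and 155 CPM. The log2 differences ran from -0.34 ± 0.84 for Nhlh1 to 0.28 ± 1.67 for Pou4f1, with adjusted p = 1 for all 6. These SEs share the spread of the Amigo1 nicotine libraries. In a fit of the 5 ChAT libraries alone the SEs were 0.18 to 0.25, and the differences were 0.28 ± 0.19 for Pou4f1, 0.06 ± 0.18 for Nr4a2, -0.33 ± 0.25 for Nhlh1, -0.05 ± 0.21 for Nhlh2, -0.20 ± 0.21 for Zic1 and 0.13 ± 0.18 for Etv1, with adjusted p of 0.54 to 0.93. The uninjected saccharin and nicotine IPs, 2 against 2, gave 971 called genes and called Gbx2 (-5.13 ± 0.41, adjusted p = 0.000242), but there gene list and nicotine coincide and cannot be told apart. Zic1 was the next nearest to a call in that fit, at -0.70 ± 0.17 (adjusted p = 0.0688). The nicotine IP with the highest thalamic marker sum, 641 CPM, was the lowest of the 3 in Pou4f1, Nr4a2, Nhlh1, Nhlh2, Zic1 and Etv1. What part that has in the differences was not tested.

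**Figure D5:**
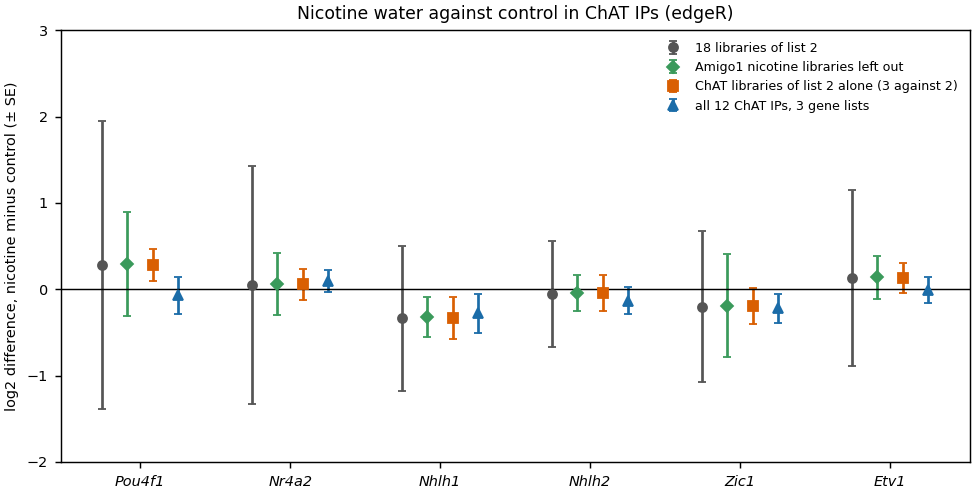
Log2 difference of nicotine from control (y axis, ± SE) in ChAT IPs for the 6 genes tested, from the fit of all 18 list 2 libraries, the same fit without the 3 Amigo1 nicotine libraries, the 5 ChAT libraries of list 2 alone, and all 12 ChAT IPs over 3 gene lists. All differences lie between -0.34 and 0.29, and none was called.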

How the data were processed

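Counts of reads per gene symbol were deposited by the authors for 44 libraries, 1 table each. The submitters' processing notes name the build mm10 and the tools STAR (2.3.0e), HTSeq and DESeq2. The libraries came from amplified cDNA with no molecular identifiers or strand marking stated, per the labels' protocols. The tables use 3 gene lists: 37328 symbols in 22 libraries, 32532 in 18 and 24454 in 4. All inputs, the Chrna5 IPs and 3 ChAT IPs are on list 1. The IPs of the other IPN lines are on list 2 with 5 ChAT IPs, and the 4 baseline ChAT IPs are on list 3. The 22682 shared symbols, which held 71.6 to 98.3% of the gene counts of a library, entered the fits, and those that passed the count filter were tested. These were 15893 genes in the list 1 fit, 14934 in the list 2 fit, 14506 in the Amigo1 line and 14064 in the Epyc line. Reads in no gene (8.46 to 27.3% of reads), ambiguous reads (0.536 to 5.56%) and reads with several places (20.3 to 57.0%) stayed out.

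CPM were computed here from the deposited counts over the shared symbols, with no further scaling. Tests used edgeR 4.0.16 in R 4.3.3 (TMM factors 0.852 to 1.11 on list 1 and 0.658 to 1.13 on list 2, filterByExpr with a minimum count of 10, robust quasi-likelihood F test, Benjamini-Hochberg adjustment). One fit held the 22 libraries of list 1 and one the 18 of list 2, grouped by line, fraction and nicotine. The Amigo1 and Epyc IPs were compared with inputs line by line. The scripts were tested on simulated counts. Alternatives were RLE scaling, DESeq2 1.42.0, no count filter, the compared groups alone, all symbols of a list, other sets of ChAT libraries, pools as a block and leaving out each library. The 3 fits added after seeing the data are the difference of enrichments, the saccharin-water libraries alone and the list 2 fit without the Amigo1 nicotine libraries.

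The extraction protocol in the labels takes IP and input from 1 homogenate, so equal pool numbers within a line and treatment were taken to mark the same mice. Deviations of the 2 fractions of a pool from their group means correlated at 0.0393 to 0.299 across genes, and each IP correlated best with its own input. This is a weak check. The 2 ChAT pools mirror each other by construction, both at 0.299, so any value above 0 gives a best match there. In the Amigo1 and Epyc lines, with 3 pools each, the values were only 0.0393 to 0.0573. Genes named are the 7 members, called genes of the lists used here, and, for each member, the 3 genes with the highest correlation over list 1. The members and lists were chosen with earlier results of these data known, and 1 paralog is not reported here. Positions are from GENCODE M21 (GRCm38) and promoter windows from RefSeq (GRCm38.p6), which lists all 7 members. Figures used Python 3.11.15 and matplotlib 3.10.9.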

Additional observations from a re-analysis of the deposited data

Results flagged for a closer look

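Some libraries lay far from the others of their group by Dixon's test, which chance passes in about 1 of 20 groups; 7 of 41 groups did so. For Pou4f1 these were saline-injected saccharin pool 2 among ChAT inputs (96.2 CPM), pool 3 among Chrna5 inputs (20.5 CPM) and baseline pool 2 among Epyc IPs (4.60 CPM). For Nhlh1 it was pool 2 among Chrna5 inputs (36.3 CPM), and for Nhlh2 baseline pool 2 among Amigo1 inputs (14.4 CPM). For Zic1 they were baseline pool 1 among Epyc IPs (2.54 CPM) and saline pump pool 2 among Epyc inputs (13.7 CPM).

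The enrichment of IP over input differed between the ChAT and Chrna5 lines for all 7 genes by an interaction term in edgeR, where 24.3% of all genes tested were called (12.7% higher and 11.6% lower). For Gbx2 the call rested on Chrna5 IP pool 4, with 19 counts, and without it the difference was 0.78 (edgeR adjusted p = 0.787). With all libraries, the differences (ChAT minus Chrna5, log2) were 7.34 for Pou4f1, 6.58 for Nr4a2, 2.10 for Nhlh1, 1.24 for Nhlh2, -5.06 for Gbx2, 5.22 for Zic1 and 6.10 for Etv1.

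The nicotine IPs of the IPN lines enter no comparison of the report as a nicotine group. In the Amigo1 line Pou4f1 reached 147 CPM in pool 4, where the control IPs held 0.487 to 3.34 CPM, and stood at 0 and 0.138 CPM in the other 2 pools. Nr4a2 reached 302 CPM in pool 3, against 13.6 to 20.2 CPM in control IPs, and 0.0859 CPM in pool 4. Also above every Amigo1 control IP were Nhlh1 in pool 1 (67.4 CPM), Nhlh2 in pool 4 (44.2 CPM) and pool 1 (30.9 CPM) and Etv1 in pool 3 (18.9 CPM). These are the libraries with 10515 to 10933 symbols detected, and no gene was high in all 3. In the Epyc line both nicotine pump pools were above every control IP in Nhlh1, pool 2 at 161 CPM and pool 1, by a small margin, at 144.5 CPM against a highest control of 143.6 CPM. Etv1 in pool 1 (3.92 CPM) was above the highest control IP at 3.76 CPM. What sets these libraries apart was not tested.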

How the results depend on the processing

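Across the alternatives, 912 of 952 values of single genes kept their direction and side of the threshold, 16 lost the call, 9 gained it and 15 turned sign. The pairing left the calls in the Chrna5, Amigo1 and Epyc lines as they were (6, 4 and 6 genes called with a replicate block), and in the ChAT line 6 of 7 were called with it. Among all genes tested, 5585 of 14101, 2537 of 14229, 5185 of 14260 and 5810 of 14810 were called with the block in these lines, in that order. Gbx2 was not called in those ChAT pools with the block (-5.53, adjusted p = 0.32) or without it (-4.44, adjusted p = 0.116). In the Epyc pools without the block Zic1 was not called (adjusted p = 0.0591).

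The number of members higher in ChAT than in Amigo1 IPs fell from 5 to 3 with no filter on low counts, and lay between 2 and 3 with any 1 library left out; the number of all genes called was 805 with all libraries and 288 to 588 then, 2178 with only the groups compared and 3523 without the Amigo1 nicotine libraries. For ChAT against Epyc IPs it was 951, 419 to 804, 4700 and 3540. Leaving out 1 library kept 7 of 7 members in ChAT IP against input and against Chrna5 IP, where 5761 to 6665 and 5117 to 5446 of all genes were called. It kept 6 to 7 in Chrna5 IP against input (4775 to 5441 genes in all) and in the difference of enrichments (3316 to 4139). It kept 6 for MHb against IPN input (3682 to 5279 genes in all) and for Epyc IP against input (4195 to 5388). For Amigo1 IP against input 4 to 5 members were called, among 3091 to 6467 genes in all.

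For nicotine, 1 member was called in the uninjected 2 against 2, with and without the replicate block (Gbx2), and 971 or 975 genes in all. Signs turned there for Pou4f1 (-0.25, and -0.26 with the block), Nr4a2 (-0.12, -0.13) and Etv1 (-0.20, -0.20), with all 12 ChAT IPs for Pou4f1 (-0.068) and Etv1 (-0.012), and in some fits with 1 library left out, which ranged from -0.042 to 0.184 for Nr4a2, from -0.036 to 0.311 for Etv1 and from -0.290 to 0.229 for Nhlh2. Gbx2 turned without Chrna5 IP pool 4, to -3.49 in the Chrna5 line (-3.49 to 3.01 over all fits that leave out 1 library) and 0.78 in the difference of enrichments (-5.72 to 0.78). The cause of these changes was not tested. Depth limits Gbx2, Zic1 and Pou4f1 in IPN IPs, where many libraries hold fewer than 20 counts.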
